A study of Mus musculus with 10 samples.

Results

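The nuclear-encoded subunits of the respiratory chain and of ATP synthase were followed in mouse naive CD4 T cells through pretreatment with Compound 10 and activation with PMA and ionomycin. The members were taken by gene symbol from the protein-coding genes of the annotation. Symbols beginning with Nduf and the letter a, b, c, s or v, without the Ndufaf assembly factors, gave complex I, and Sdha to Sdhd gave complex II. Symbols beginning with Uqcr gave complex III, Cox4 to Cox8 gave complex IV and Atp5 gave complex V. The rule found 86 gene models of 45321, namely 38 of complex I, 4 of complex II, 8 of complex III, 18 of complex IV and 18 of complex V. They carry 85 symbols, because Atp5o has a further readthrough model, and 11 pseudogenes with matching symbols were left out. Of the 86 models, 79 had enough counts to be tested. The other 7 (Ndufa4l2, Cox4i2, Cox6a2, Cox7a1, Cox7b2, Cox8b and Cox8c) did not.

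The respiratory chain passes electrons from NADH through complex I, or from succinate through complex II, to coenzyme Q, and then through complex III and cytochrome c to complex IV, which reduces oxygen. The protons pumped on the way drive complex V, the ATP synthase. Complex II is also the succinate dehydrogenase of the citric acid cycle and, unlike the other complexes, has no mitochondrially encoded subunit. Quiescent T cells depend mainly on oxidative phosphorylation, and activated T cells build more mitochondria before they divide.

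The cells were sorted by surface markers (CD4+CD62L+CD69-) from the spleens of C57BL/6 mice and were wild type as far as the labels say. Each sample received 12.5 µM Compound 10 or its solvent DMSO for 1 h. The series' design text names the compound as an inhibitor of NFAT:AP-1, a pair of transcription factors that switches on T cell activation genes. Stimulated cells then received 10 nM PMA, which activates protein kinase C, and 1 µM ionomycin, a calcium ionophore, for 2 h, which activates T cells without their antigen receptor. The groups were stimulated Compound 10 cells (n = 3 libraries), stimulated DMSO cells (n = 2), unstimulated Compound 10 cells (n = 2) and unstimulated DMSO cells (n = 3). Nothing in the labels says that libraries of a group came from different animals or cultures, so a p-value here covers no more than the variation among these libraries, and that variation may be technical.

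The libraries held 10694591 to 33486259 estimated counts. The 10 genes of T cell identity summed to 3301 to 3689 CPM in stimulated Compound 10 cells, 3859 to 4035 CPM in stimulated DMSO cells, 2132 to 2418 CPM in unstimulated Compound 10 cells and 1727 to 1819 CPM in unstimulated DMSO cells, where CPM are counts scaled to a fixed library total and TMM factors. B cell markers summed to 4.05 to 9.39 CPM, CD8 T cell markers to 2.41 to 10.6 CPM, NK cell markers to 2.58 to 18.4 CPM (Ncr1 and Klra8 at 0 in every library) and erythroid markers to at most 0.466 CPM. The CD8 sum was nearly all Cd8b1, with 966 counts over all libraries against 12 for Cd8a. The sum of the 12 myeloid markers moved with the groups, at 2.83 to 7.30 CPM in stimulated Compound 10 cells, 6.18 to 9.43 CPM in stimulated DMSO cells, 9.52 to 12 CPM in unstimulated Compound 10 cells and 14 to 25.5 CPM in unstimulated DMSO cells. Between 2 and 8 of these 12 were at 0 counts in a library, and S100a9 was at 0 in all. Their sum was mainly Cd68, with 2140 counts over all libraries, while Fcgr3, the next of them, had 149. The 5 regulatory T cell markers (Foxp3, Ikzf2, Il2ra, Ctla4 and Tnfrsf18, of which Il2ra and Ctla4 are also made by other activated T cells) moved with the groups as well, at 82.5 to 118 CPM in stimulated Compound 10 cells, 202 to 250.1 CPM in stimulated DMSO cells, 69.1 to 70.6 CPM in unstimulated Compound 10 cells and 53.4 to 62.8 CPM in unstimulated DMSO cells, with none at 0. The 9 memory or effector markers summed to 252 CPM at most in stimulated Compound 10 cells and 255 CPM at most in stimulated DMSO cells (243 CPM at least in both), to 109.5 to 131 CPM in unstimulated Compound 10 cells and to 81.1 to 84.1 CPM in unstimulated DMSO cells, with at most 1 of the 9 at 0 in a library. Gene models resembling ribosomal RNA took 6.55% to 12.5%, 6.85% to 11.4%, 4.43% to 6.29% and 3.77% to 5.70% of the counts in the same order of groups. The part of these shifts in the results on the subunits was not tested.

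Short transcripts, which include most subunits, were measured higher in some libraries than in others of the same group, and a pair of unstimulated libraries stood apart the most for the subunits. The third DMSO library and the second Compound 10 library of unstimulated cells were also the most deeply sequenced, with 27857586 and 33486259 counts. The subunits' transcripts had a median length of 773 bases against 2490 bases over all tested genes, and 51.9% of them were under 800 bases, against 7.91% of all tested genes. In the third over the first unstimulated DMSO library, the median ratio on the log2(CPM + 0.5) scale was 0.88 over the 79 subunits, with 73 of them above 0, and 0.41 over all genes under 800 bases. In the second over the first unstimulated Compound 10 library it was 0.68 over the subunits, with 69 above 0, and 0.29 over genes under 800 bases. In the second over the first unstimulated DMSO library it was 0.06 over the subunits. The third stimulated Compound 10 library showed the relation too, with 0.31 over the subunits relative to the first, 72 of them above 0, and 0.21 over genes under 800 bases. The rank correlation of the ratio with length across genes was −0.295 there, beside −0.282 for the third over the first unstimulated DMSO library and −0.20 for the second over the first unstimulated Compound 10 library. In the second over the first stimulated DMSO library the median over the subunits was 0.24, with 71 above 0. These 3 libraries of the unstimulated DMSO, unstimulated Compound 10 and stimulated Compound 10 groups make up the third run of index numbers in the deposited library names. Each comparison is also given without the pair that stood apart the most. Without the third stimulated Compound 10 library, 13 subunits were lower and 2 higher in stimulated Compound 10 than in stimulated DMSO cells. These were 16.5% and 2.53%, beside 11.8% and 9.14% of all genes. In stimulated against unstimulated Compound 10 cells, 16 were then lower and 1 higher (20.3% and 1.27%, beside 11.8% and 11.2% of all genes).

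**Figure D1:**
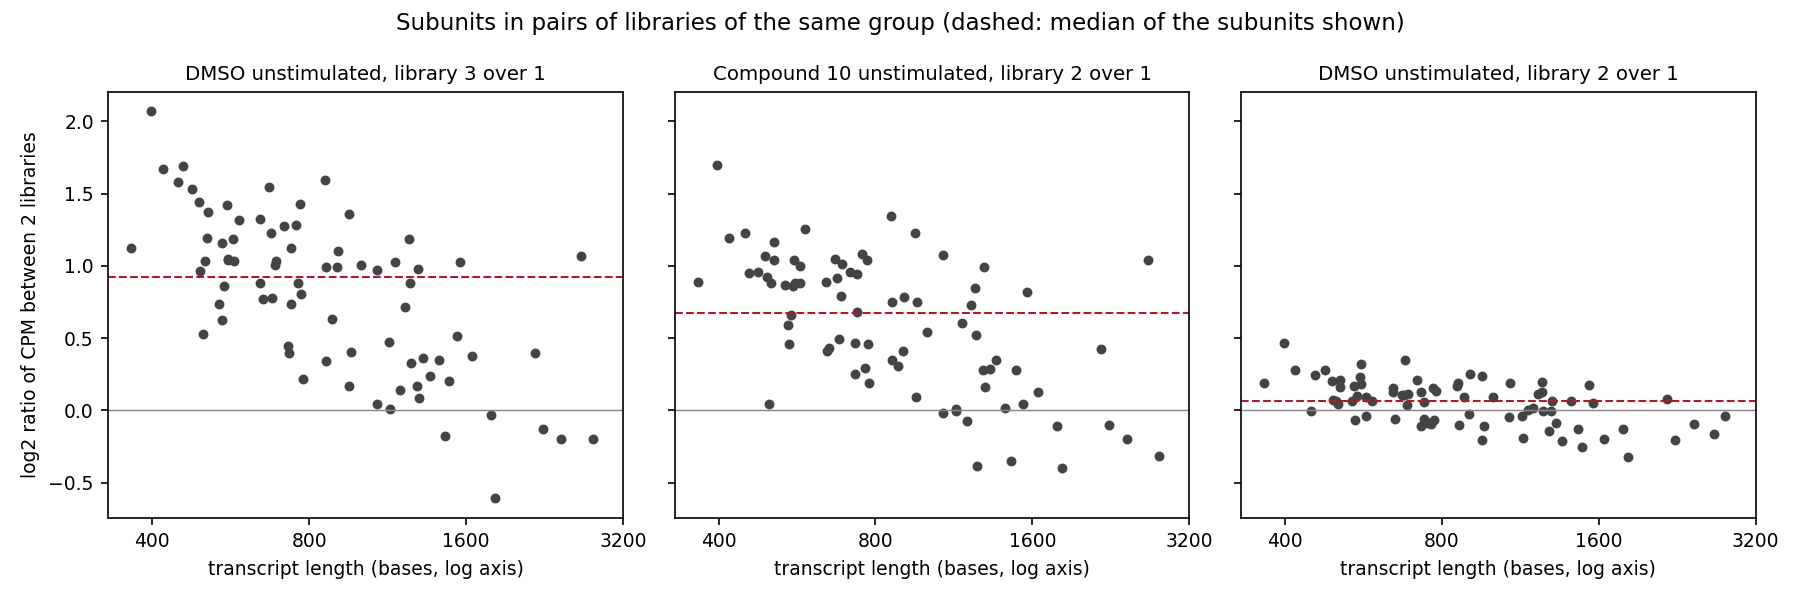
Log2 ratio of CPM + 0.5 of each subunit (points) between 2 libraries of the same group, against the mean length of its transcripts on a log axis, for 78 of the 79 tested subunits (the Atp5o readthrough model, near 0 counts, is not drawn). The points of the first and middle panels lie mostly above 0, at the shorter lengths most of all, and those of the right panel lie near 0. Dashed lines mark the median of the subunits drawn.

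Levels between genes were compared in TPM, which divides by transcript length. The highest subunit of complex V was Atp5b, the catalytic beta subunit, at 1679 TPM on average over the 10 libraries, and the lowest model was the Atp5o readthrough model at 1.15 TPM. In complex IV the highest was Cox4i1, the ubiquitous form of subunit 4, at 744 TPM, and the lowest tested was Cox6b2, the testis form of its subunit, at 3.11 TPM. In complex III Uqcrh, the acidic hinge protein that helps cytochrome c dock, led with 446 TPM, and the core protein gene Uqcrc2 was lowest with 79.9 TPM. In complex I Ndufa4, whose protein is now counted as a complex IV subunit but whose symbol puts it here, led with 229.8 TPM, and Ndufb3, a membrane-arm accessory subunit, was lowest with 19.5 TPM. In complex II Sdha led with 121.7 TPM and Sdhc was lowest with 19.7 TPM. The median subunit stood at 86.1 TPM in complex I, 100.9 TPM in complex II, 170.2 TPM in complex III, 185 TPM in complex IV and 192 TPM in complex V.

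The tissue forms of paired subunits were listed at or near 0, and the ubiquitous forms carried nearly all of the signal. Cox7b2 and Cox8c, testis forms, had no counts in any library. Cox8b and Cox6a2, heart and muscle forms, and Ndufa4l2, known from hypoxic cells, had 1 count each over all 10 libraries. Cox4i2, the lung and hypoxia form, had 16 counts and Cox7a1, the heart and muscle form, had 59. Their partners Cox7b (84.7 TPM), Cox8a (154 TPM), Cox6a1 (299.8 TPM), Cox6b1 (219 TPM) and Cox7a2 (103 TPM) were well measured. Cox7a2l stood at 681 TPM.

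The first comparison asked what Compound 10 changed in stimulated cells. Of the 79 subunits, 13 were lower and 2 were higher in stimulated Compound 10 cells than in stimulated DMSO cells, beside 23.2% of all 14417 tested genes called in either direction (12.8% lower and 10.4% higher). Called means an adjusted p under 0.05 in edgeR's quasi-likelihood test. The share of subunits called lower was 16.5%, and the median log2 fold change was −0.39 over the subunits and 0.04 over all genes. In bulk RNA, fewer cells of a type and less RNA per cell cannot be told apart. By complex, 6 fell and 2 rose of 37 tested in complex I (median −0.36), 3 fell of 4 in complex II (−0.68), 2 fell of 8 in complex III (−0.71), 0 of 12 changed in complex IV (−0.42) and 2 fell of 18 in complex V (−0.39). In complex IV, 1 subunit (Cox6b1, named after its values were seen) had an unadjusted p under 0.05, and DESeq2 and limma-voom also called 0. Without both libraries that stood apart, 30 subunits were lower and 2 higher, 5 of them lower in complex IV. The share called lower was then 38.0% of the subunits and 16.4% of all 14921 genes tested. Both libraries are unstimulated and are in neither group compared here, so they act only through the shared fit. The fold changes moved little, with Sdhd at −1.36 and Ndufb7 at −2.14 without them, beside −1.35 and −2.13 with them. The number of subunits called, relative to the background, thus depends on libraries outside the comparison.

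**Figure D2:**
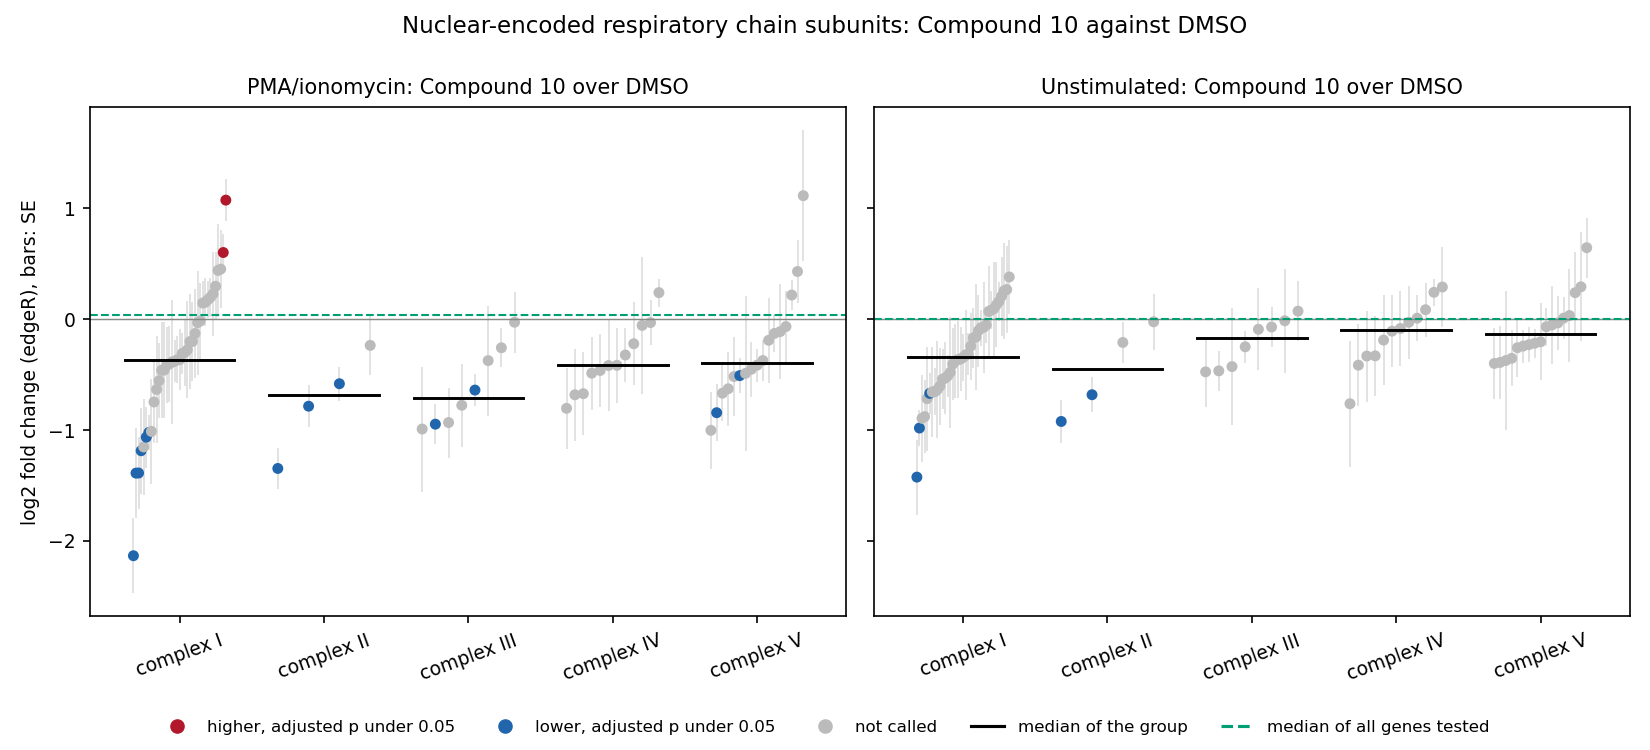
Log2 fold change of each subunit (points, with SE as bars) in Compound 10 over DMSO cells, by complex, in stimulated cells (left) and unstimulated cells (right). Black lines mark the median of each complex, which includes the Atp5o readthrough model that is not drawn, and the dashed line marks the median of all 14417 genes. All 4 complex II subunits and all 8 complex III subunits lie below 0 in stimulated cells.

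Complex II had the largest share of called subunits of the 5 complexes in stimulated cells, with 3 of 4. Here and below, genes whose groups are said not to overlap were picked by their calls. The share of all genes without overlap was not counted. Sdhd, the small membrane anchor of succinate dehydrogenase (chromosome 9, 50596357 to 50603812, minus strand), had 25.3, 25.1 and 35.1 CPM in stimulated Compound 10 cells, against 68.3 and 76.8 CPM in stimulated DMSO cells. All 3 Compound 10 libraries lay far below both DMSO libraries. Sdhd fell 2.54-fold (log2 −1.35 ± 0.19 SE, adjusted p = 0.000512). Sdhb, the iron–sulfur subunit (chromosome 4, 140961203 to 140979193, plus strand), had 41.2, 43.1 and 54.8 CPM in stimulated Compound 10 cells, against 76.7 and 83.1 CPM in stimulated DMSO cells, without overlap. It fell 1.72-fold (log2 −0.78 ± 0.19 SE, adjusted p = 0.0120). Sdha, the flavoprotein that oxidises succinate (chromosome 13, 74322254 to 74350280, minus strand), had 95.4, 111 and 105 CPM in stimulated Compound 10 cells, against 143 and 168 CPM in stimulated DMSO cells. It fell 1.5-fold (log2 −0.58 ± 0.15 SE, adjusted p = 0.0179). Sdhc, the other membrane anchor (chromosome 1, 171127165 to 171150603, minus strand), had 8.18, 12.9 and 10.2 CPM in stimulated Compound 10 cells, against 10.2 and 14.3 CPM in stimulated DMSO cells, which overlapped. Its log2 difference was −0.24 ± 0.26 (adjusted p = 0.578). Per length, the order in stimulated Compound 10 cells was Sdha (67.3 ± 4.76 TPM), Sdhb (51.1 ± 6.82 TPM), Sdhd (27.0 ± 4.44 TPM) and Sdhc (9.62 ± 2.66 TPM; SD, n = 3). In stimulated DMSO cells Sdha (88.2 ± 12.6 TPM), Sdhb (83.3 ± 7.03 TPM) and Sdhd (64.9 ± 7.47 TPM) lay closer together, with Sdhc at 13.2 ± 3.28 TPM (SD, n = 2). The call of Sdhd held in all 25 alternative settings. That of Sdhb was lost without the first (log2 −0.84, adjusted p = 0.0625) or the second (−0.72, adjusted p = 0.103) stimulated DMSO library. That of Sdha was lost without either of these (−0.69, adjusted p = 0.0530, and −0.45, adjusted p = 0.192) or without the first stimulated Compound 10 library (−0.53, adjusted p = 0.0640).

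The promoters of the 3 complex II genes that fell, and of Ndufb7, the complex I gene with the largest fall, are shown because these genes moved together. The sequences are RefSeq's (GRCm38.p6), run from 250 bases before to 50 bases after the start of the gene, and are written 5′ to 3′ in the direction of transcription, with capitals at matches to the palindromic NRF1 motif or to the ETS/GABP motif CCGGAAG on either strand. NRF1 and GABP are the transcription factors best known for binding respiratory chain promoters. The windows are chr9:50603800-50604099 (minus strand) for Sdhd, chr4:140961021-140961320 (plus strand) for Sdhb, chr13:74350191-74350490 (minus strand) for Sdha and chr8:83566508-83566807 (plus strand) for Ndufb7.
Sdhd: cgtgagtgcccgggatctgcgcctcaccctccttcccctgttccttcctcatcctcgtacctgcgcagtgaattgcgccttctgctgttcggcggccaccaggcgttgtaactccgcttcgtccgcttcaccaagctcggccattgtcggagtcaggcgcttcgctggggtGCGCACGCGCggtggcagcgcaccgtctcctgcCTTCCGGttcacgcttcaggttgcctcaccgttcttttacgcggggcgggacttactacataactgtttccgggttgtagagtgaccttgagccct
Sdhb: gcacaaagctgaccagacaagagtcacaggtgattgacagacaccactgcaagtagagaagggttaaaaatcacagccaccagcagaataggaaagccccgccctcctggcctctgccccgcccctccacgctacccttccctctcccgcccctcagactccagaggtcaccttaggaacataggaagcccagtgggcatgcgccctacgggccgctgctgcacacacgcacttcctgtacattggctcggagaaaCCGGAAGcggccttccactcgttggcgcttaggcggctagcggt
Sdha: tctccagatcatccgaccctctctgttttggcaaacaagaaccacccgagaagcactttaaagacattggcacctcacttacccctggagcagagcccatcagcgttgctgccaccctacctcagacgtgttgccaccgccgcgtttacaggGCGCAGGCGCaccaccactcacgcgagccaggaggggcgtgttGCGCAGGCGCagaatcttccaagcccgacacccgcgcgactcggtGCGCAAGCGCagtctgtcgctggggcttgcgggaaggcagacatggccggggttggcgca
Ndufb7: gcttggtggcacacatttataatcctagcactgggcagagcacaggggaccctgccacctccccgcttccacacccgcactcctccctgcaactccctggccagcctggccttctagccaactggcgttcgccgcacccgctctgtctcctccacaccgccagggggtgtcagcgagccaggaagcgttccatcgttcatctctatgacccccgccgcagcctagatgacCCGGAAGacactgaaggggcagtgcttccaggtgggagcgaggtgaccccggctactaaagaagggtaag
Counted from the start of the gene, the Sdhd window held an NRF1 match at −79 and an ETS match at −46. The Sdhb window held an ETS match at 7, the Sdha window held NRF1 matches at −98, −55 and −10, and the Ndufb7 window held an ETS match at −20. Over the 69 members found in the promoter table, 23.2% held the NRF1 motif, against 4.78% of all 27025 promoters, and 21.7% held the ETS/GABP motif, against 9.12%. The YY1 motif ATGGCGG was in 13%, against 4.19%, and the ERR motif AAGGTCA in 11.6%, against 4.66%. The AP-1 motif TGANTCA was in 10.1%, against 7.93%, and the NFAT core GGAAA in 65.2%, against 61.3%. The E-box CACGTG was in 8.70%, against 7.24%, the NFY motif CCAAT in 43.5%, against 37.9%, and the SP1 motif GGGCGG in 42.0%, against 35.9%. All motifs were searched on both strands, and matches of different motifs may overlap. These matches describe letters in the windows and are neither shown sites nor causes.

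In complex I most of the called subunits belonged to the membrane arm. Ndufb7, an accessory subunit on the intermembrane-space side of that arm (chromosome 8, 83566671 to 83571626, plus strand), had 5.64, 7.11 and 7.87 CPM in stimulated Compound 10 cells, against 26.5 and 33.9 CPM in stimulated DMSO cells. All 3 Compound 10 libraries lay far below both DMSO libraries. Ndufb7 fell 4.39-fold (log2 −2.13 ± 0.34 SE, adjusted p = 0.00109), and the call held in all 25 alternative settings. Ndufb8, Ndufb6 and Ndufa11 are further accessory subunits of this arm. Ndufb8 had 12.2, 18.3 and 21.1 CPM in stimulated Compound 10 cells, against 40.4 and 49.6 CPM in stimulated DMSO cells (log2 −1.39 ± 0.33 SE, adjusted p = 0.0101). Ndufa11 had 12.2, 12.7 and 20.6 CPM, against 34.5 and 44.8 CPM (−1.39 ± 0.41, adjusted p = 0.0296). Ndufb6 had 12.7, 13.2 and 16.4 CPM, against 29.2 and 34.9 CPM (−1.19 ± 0.39, adjusted p = 0.0468). Ndufab1, the mitochondrial acyl carrier protein that also sits in complex I, had 14.6, 15.1 and 18.7 CPM in stimulated Compound 10 cells, against 29.9 and 37.5 CPM in stimulated DMSO cells (−1.06 ± 0.27, adjusted p = 0.0156). The groups did not overlap in any of these 5 genes, which were picked by their calls. Of the summed TPM of Ndufab1, 15.4% in stimulated Compound 10 cells and 25.4% in stimulated DMSO cells lay on coding transcript models.

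The calls of some accessory subunits rested on single libraries. The call of Ndufb8 was lost without the second stimulated DMSO library (log2 −1.22, adjusted p = 0.0907). Ndufa11 was at −1.56 and −1.18 without the first and the second stimulated DMSO library (adjusted p = 0.0804 and 0.185), and at −1.26 and −1.27 without the first and the second stimulated Compound 10 library (0.0981 and 0.0969). Ndufb6 was at −1.31, −1.04, −1.12, −1.14 and −1.31 without the first and second stimulated DMSO and each of the stimulated Compound 10 libraries in turn (adjusted p between 0.0709 and 0.224). Ndufab1 was at −0.88, −1.0 and −1.02 without the second stimulated DMSO and the first and second stimulated Compound 10 libraries (adjusted p = 0.142, 0.0558 and 0.0539). Over all subunits, 8 were called without the first stimulated Compound 10 library. Without the first or the second stimulated Compound 10 library, 8.86% and 10.3% of the subunits were lower, against 10.1% and 10.5% of all genes. The share of subunits was then no longer above that of all genes. Fewer subunits and fewer of all genes were also called without either stimulated DMSO library, where 1 library stood for the group.

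In the matrix arm of complex I, where NADH is oxidised, subunits moved in both directions. Ndufs1, its large iron–sulfur core subunit (chromosome 1, 63143596 to 63176833, minus strand), had 28.7, 36.4 and 31.1 CPM in stimulated Compound 10 cells, against 69.3 and 61.3 CPM in stimulated DMSO cells. It fell 2.03-fold (log2 −1.02 ± 0.16 SE, adjusted p = 0.00108). Eef1b2, an abundant gene on the opposite strand (517.9 CPM on average), overlaps Ndufs1, and the library kit did not mark the strand, so their reads cannot be told apart where they overlap. Ndufv3, a small accessory subunit beside the NADH site (chromosome 17, 31520115 to 31531331, plus strand), had 37.3, 26.7 and 37.7 CPM in stimulated Compound 10 cells, against 15.3 and 16.8 CPM in stimulated DMSO cells. It was 2.11-fold higher (log2 1.07 ± 0.19 SE, adjusted p = 0.00217). The calls of Ndufs1 and Ndufv3 held in all 25 alternative settings. Of 30 tested accessory subunits of complex I 5 fell and 1 rose.

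In complex III the called subunits were the core proteins, and in complex V a rotor and a head subunit. Uqcrc1, a core protein of complex III (chromosome 9, 108936633 to 108949623, plus strand), lies outside the rule for named genes and was chosen after its values were seen. It had 151, 164 and 191 CPM in stimulated Compound 10 cells, against 306 and 343 CPM in stimulated DMSO cells (log2 −0.95 ± 0.18 SE, adjusted p = 0.00304), and the call held in all 25 settings. Its partner Uqcrc2 had 73.2, 62.7 and 59.5 CPM, against 103.7 and 99.2 CPM (−0.64 ± 0.14, adjusted p = 0.00782), a call lost without the first (−0.61, adjusted p = 0.0793) or second (−0.66, adjusted p = 0.0559) stimulated DMSO library. In complex V, Atp5g3, a gene for the c subunit of the rotor, had 64.6, 66.3 and 80.0 CPM in stimulated Compound 10 cells, against 128 and 124 CPM in stimulated DMSO cells (−0.84 ± 0.26, adjusted p = 0.0358). Atp5d, the delta subunit of the F1 head, had 99.2, 91.5 and 114 CPM, against 144 and 145 CPM (−0.51 ± 0.16, adjusted p = 0.0356). Both calls were lost without the first or second stimulated DMSO or the first or second stimulated Compound 10 library, where Atp5g3 lay between −0.86 and −0.79 (adjusted p between 0.101 and 0.168) and Atp5d between −0.52 and −0.44 (adjusted p between 0.0903 and 0.176).

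**Figure D3:**
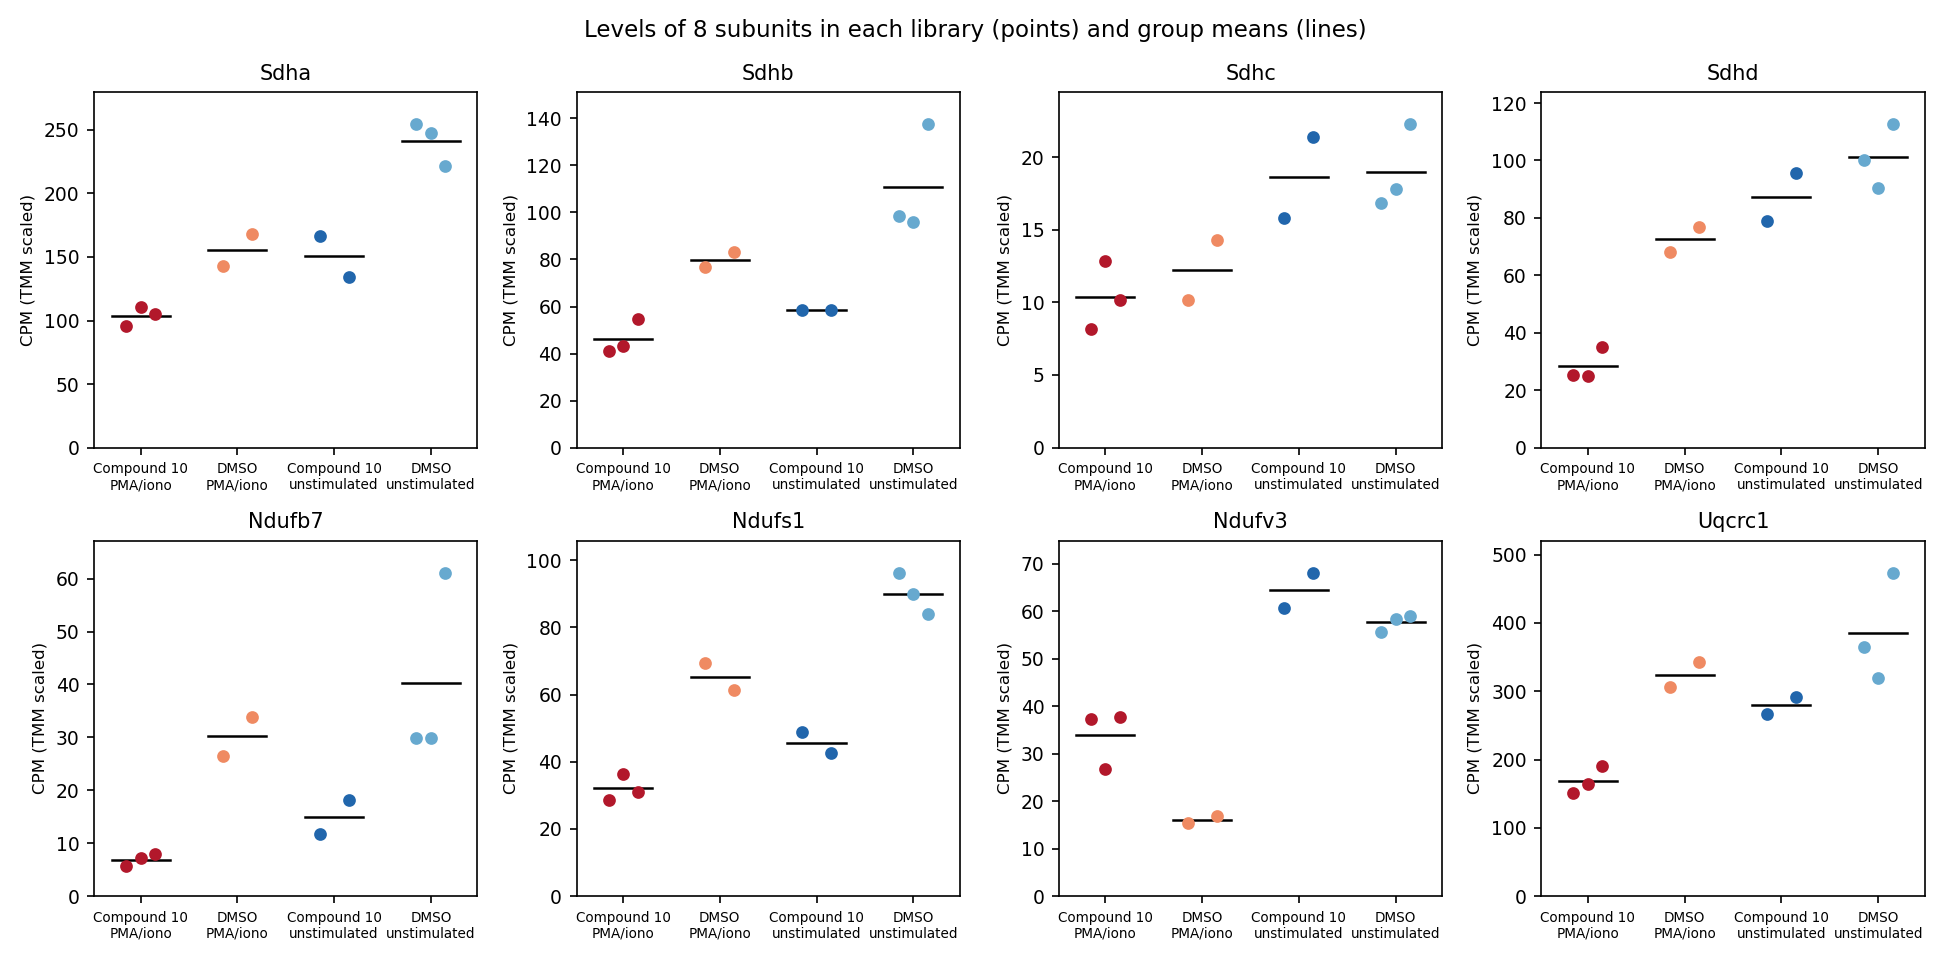
CPM (TMM scaled) of 8 subunits in each library (points), with the mean of each group as a line, in stimulated Compound 10, stimulated DMSO, unstimulated Compound 10 and unstimulated DMSO cells. The 3 stimulated Compound 10 libraries lie below both stimulated DMSO libraries for Sdha, Sdhb, Sdhd, Ndufb7, Ndufs1 and Uqcrc1, above them for Ndufv3, and overlapping them for Sdhc.

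The deposited library names carry index numbers that form 3 runs, and the comparison was repeated within runs. Between the Compound 10 and DMSO libraries of stimulated cells, the median log2 difference over the subunits was −0.35 in the first run and −0.56 in the second, with medians over all genes of 0.02 and 0.01. The median over complex II was −0.73 and −0.77 in these runs. Sdhd was at −1.41 and −1.59, Ndufb7 at −2.14 and −2.18, Ndufs1 at −1.26 and −0.74, and Ndufv3 at 1.26 and 0.66. In unstimulated cells the median over the subunits was −0.24 in the second run and −0.38 in the third. Only 1 library per group lies in a run, so these values have no test.

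The second comparison asked what Compound 10 changed in unstimulated cells. Here 5 of the 79 subunits were lower and 0 were higher, beside 8.43% of all tested genes called (3.78% lower and 4.65% higher). The median log2 fold change was −0.22 over the subunits and 0.00 over all genes. Of the subunits, 11 had an unadjusted p under 0.05, and DESeq2 called 6 and limma-voom 5, all lower. Complex I held 3 of the calls (median −0.34) and complex II held 2 (−0.45), and complexes III, IV and V held none (−0.17, −0.10 and −0.14). In complexes III, IV and V, 1, 0 and 1 subunits had an unadjusted p under 0.05, and DESeq2 and limma-voom called 0.

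Ndufb7 had 11.8 and 18.1 CPM in unstimulated Compound 10 cells, against 29.8, 29.8 and 61.1 CPM in unstimulated DMSO cells (log2 −1.42 ± 0.34 SE, adjusted p = 0.0280). Ndufs1 had 48.8 and 42.5 CPM, against 96.2, 90.0 and 84.0 CPM (−0.98 ± 0.17, adjusted p = 0.00691). Sdhb had 58.6 and 58.4 CPM, against 98.7, 96.0 and 137.5 CPM (−0.92 ± 0.20, adjusted p = 0.0183). The groups did not overlap in any of these genes, which were picked by their calls. Sdha had 167 and 134 CPM in unstimulated Compound 10 cells, against 254, 247 and 222 CPM in unstimulated DMSO cells (−0.68 ± 0.16, adjusted p = 0.0256). Ndufa10, a membrane-arm accessory subunit with a nucleoside kinase fold, had 50.01 and 38.2 CPM, against 64.5, 64.3 and 81.3 CPM (−0.67 ± 0.18, adjusted p = 0.0467). Only 6.76% to 8.41% of its summed TPM in unstimulated groups lay on coding transcript models, and the rest on models of other annotated types. Without both libraries that stood apart, Ndufb7 (−1.33, adjusted p = 0.0218) and Ndufs1 (−0.92, adjusted p = 0.0329) kept their calls, and Sdhb (−0.72, adjusted p = 0.0878), Sdha (−0.58, adjusted p = 0.105) and Ndufa10 (−0.36, adjusted p = 0.366) did not.

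Leaving out single libraries gave fewer calls in unstimulated cells. Without the first or the second DMSO library, 3.8% of the subunits were lower, beside 1.32% and 1.7% of all genes. Without the first or second DMSO library 3 subunits were called, without the first Compound 10 library 2, and without the second Compound 10 library 0, where 1 library stood for the group and was assumed to vary like the others. Ndufb7 was then at −1.16 and −1.77 without the first and second Compound 10 library (adjusted p = 0.138 and 0.0653), and Sdhb at −0.93 and −0.91 (0.0748 and 0.115). Ndufs1 was at −0.88 without the second Compound 10 library (0.0747). Sdha was at −0.63, −0.67 and −0.52 without the first and second DMSO and the second Compound 10 library (0.0737, 0.0687 and 0.210). The call of Ndufa10 was lost without any one of the 10 libraries (−0.88 to −0.48, adjusted p between 0.0540 and 0.307).

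The comparisons in stimulated and unstimulated cells share no library but come from 1 fit with a shared estimate of spread. Of the 13 subunits lower in stimulated Compound 10 cells and the 5 lower in unstimulated Compound 10 cells, 4 were the same genes (Ndufb7, Ndufs1, Sdha and Sdhb). Over all tested genes 1848 and 545 were lower, and their overlap was not counted, so these 4 have no background beside them. The difference between the 2 comparisons was tested as an interaction, in which 1 of 79 subunits was called, beside 6.63% of all genes (2.55% higher and 4.08% lower). This was Sdhd. It had 78.9 and 95.8 CPM in unstimulated Compound 10 cells, against 100.1, 90.5 and 113 CPM in unstimulated DMSO cells, which overlapped (log2 −0.21 ± 0.19, adjusted p = 0.551). Its fall with Compound 10 was larger in stimulated cells by 1.14 ± 0.26 on the log2 scale (SE, adjusted p = 0.0287). This call was lost without any of 7 single libraries, at −1.15 and −1.07 without the first and second unstimulated DMSO, −1.01 without the second unstimulated Compound 10, −1.22 and −1.03 without the first and second stimulated DMSO, and −1.06 and −1.05 without the first and second stimulated Compound 10 library (adjusted p between 0.0524 and 0.134). Without both libraries that stood apart it was −1.09 (adjusted p = 0.0399). For Ndufv3, the difference of 0.91 ± 0.26 between the comparisons had an adjusted p of 0.0597.

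Stimulation itself was compared within each pretreatment. With Compound 10, 21 of 79 subunits were lower and 2 higher in stimulated than in unstimulated cells, beside 26.5% of all genes called (13.7% lower and 12.8% higher), with a median log2 fold change of −0.54 over the subunits and −0.01 over all genes. With DMSO, 16 were lower and 4 higher, beside 39.0% of all genes (19.4% lower and 19.5% higher), with medians of −0.40 and −0.06. Complex I held most of these falls, with 15 of 37 with Compound 10 (median −0.76) and 14 of 37 with DMSO (−0.73). In complex II 3 of 4 fell with Compound 10 (−0.69) and 1 with DMSO (−0.55). In complex III 3 of 8 fell with Compound 10 (−0.42), and 1 rose with DMSO (0.12). In complex V 2 of 18 rose with Compound 10 (−0.15), and 3 rose and 1 fell with DMSO (−0.01). In complex IV 0 of 12 were called in either comparison (−0.28 and −0.01), 1 had an unadjusted p under 0.05 in each (Cox7a2l, named after its values were seen), limma-voom called 0 and DESeq2 called 1 higher in each. Of the 21 and the 16 subunits that fell, 11 were the same genes (Sdha and 10 of complex I). These 2 comparisons share no library but come from the same fit. Over all tested genes 1972 and 2803 fell, and their overlap was not counted.

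The size of these changes, and for some called rises the direction, depends on the scaling. When counts were scaled to library totals alone, the median log2 fold change of all genes moved to −0.60 with Compound 10 and to −0.83 with DMSO, and 57 and 52 subunits were called, all lower. These were 72.2% and 65.8% of the subunits, beside 36.2% and 45.8% of all genes called lower. Values below are relative to the TMM scaling. Within index runs, the median over the subunits with Compound 10 was −0.18 in the second and −0.64 in the third run. With DMSO it was −0.16 in the first and 0.05 in the second run, so its sign differed, while complex I was below 0 in both (−0.47 and −0.23) and complex IV above 0 in both (0.30 and 0.48). Without both libraries that stood apart, 16 were lower and 3 higher with Compound 10 (20.3% lower, beside 12.1% of all genes). With DMSO 16 were lower and 14 higher, 4 of these in complex IV (20.3% lower and 17.7% higher, beside 20.7% and 21.1% of all genes).

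**Figure D4:**
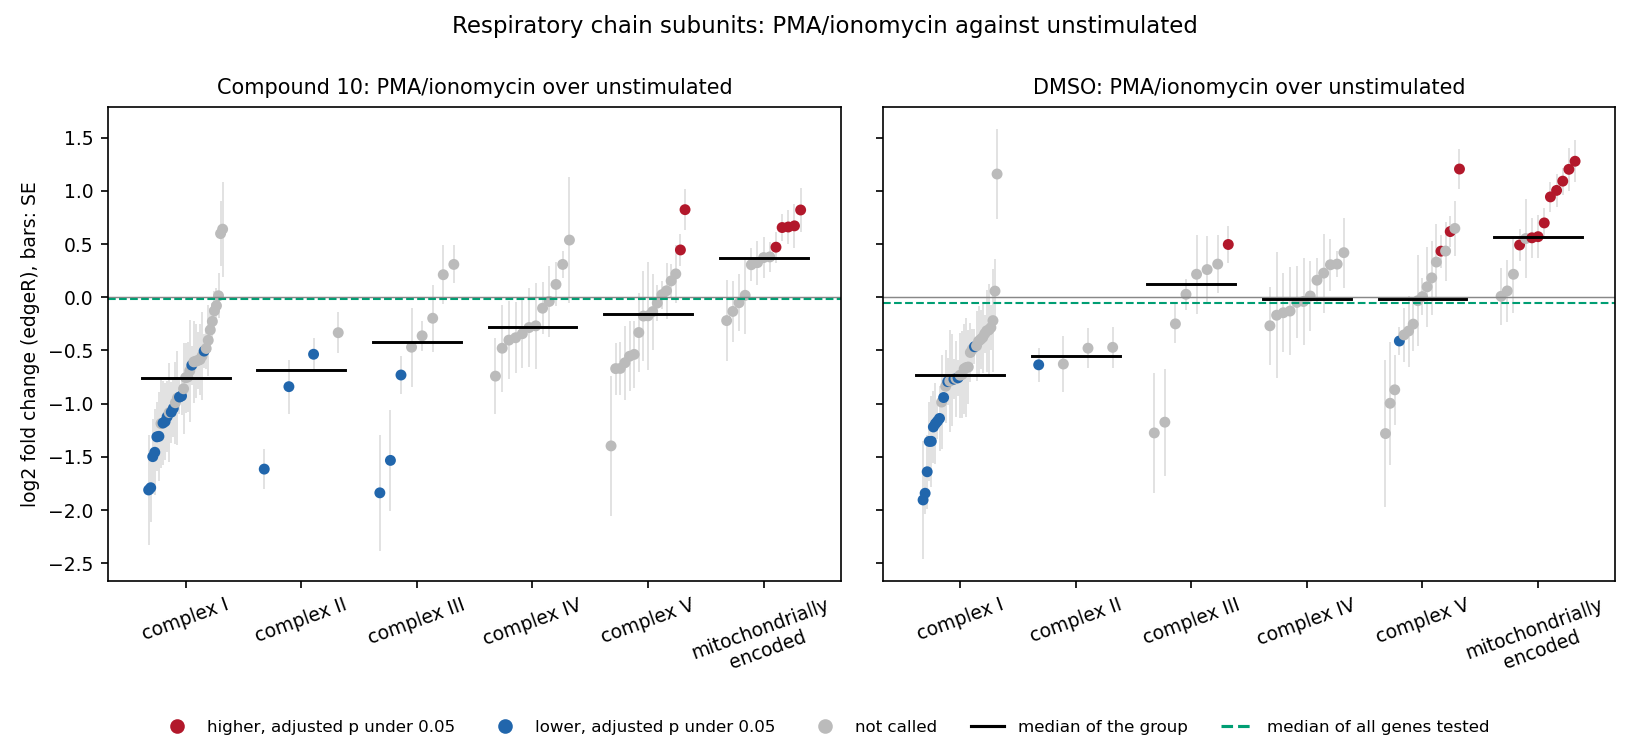
Log2 fold change of each subunit (points, with SE as bars) in stimulated over unstimulated cells, with Compound 10 (left) and DMSO (right), by complex, with the 13 mitochondrially encoded subunits last. Black lines mark medians, which include the Atp5o readthrough model that is not drawn, and the dashed line marks the median of all 14417 genes. Complex I medians lie at −0.76 and −0.73, and the mitochondrially encoded medians at 0.37 and 0.57.

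The falls in complex I reached both arms of the enzyme. Ndufa8, a membrane-arm accessory subunit (chromosome 2, 36036326 to 36049406, minus strand), had 9.40, 12.3 and 15.7 CPM in stimulated Compound 10 cells, against 31.9 and 54.1 CPM in unstimulated Compound 10 cells (log2 −1.79 ± 0.32 SE, adjusted p = 0.00206). It had 18.3 and 18.4 CPM in stimulated DMSO cells, against 41.3, 47.2 and 82.6 CPM in unstimulated DMSO cells (−1.64 ± 0.35, adjusted p = 0.00289). Ndufv3 had 37.3, 26.7 and 37.7 CPM in stimulated Compound 10 cells, against 60.7 and 68.1 CPM in unstimulated Compound 10 cells (−0.93 ± 0.18, adjusted p = 0.00276). It had 15.3 and 16.8 CPM in stimulated DMSO cells, against 55.7, 58.3 and 59.0 CPM in unstimulated DMSO cells, a 3.59-fold fall (−1.84 ± 0.20, adjusted p = 2.619e-05). The calls of Ndufa8 and Ndufv3 held in all 25 settings in both comparisons. The groups did not overlap, in genes picked by their calls. Ndufs5, an accessory subunit that faces the intermembrane space, fell with Compound 10 (−1.5 ± 0.36, adjusted p = 0.00932) and with DMSO (−1.35 ± 0.37, adjusted p = 0.0127). Its call was lost without the second library of unstimulated Compound 10 cells (−1.18, adjusted p = 0.0833), and, with DMSO, without the first (−1.31, adjusted p = 0.0914) or second (−1.44, adjusted p = 0.0680) stimulated library.

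Ndufb4, Ndufb10 and Ndufb3 are accessory subunits of the membrane arm. Ndufb4 had 3.98, 2.91 and 4.95 CPM in stimulated Compound 10 cells, against 7.54 and 19.9 CPM in unstimulated Compound 10 cells (log2 −1.81 ± 0.52 SE, adjusted p = 0.0236). It had 5.02 and 5.28 CPM in stimulated DMSO cells, against 11, 12.4 and 34.3 CPM in unstimulated DMSO cells (−1.90 ± 0.56, adjusted p = 0.0180). Its values are uncertain, because the processed pseudogene Ndufb4c held 1811 counts and Ndufb4 itself 2802, and reads can be divided between them. Without the second unstimulated Compound 10 library the fall with Compound 10 was −0.96 (adjusted p = 0.30), without the first and second stimulated Compound 10 library −1.81 and −1.63 (0.0665 and 0.0868), and with DMSO it was −1.88 and −1.96 without the first and second stimulated library (0.108 and 0.0977). Ndufb10 fell with DMSO (−1.35 ± 0.43, adjusted p = 0.0256), with the call lost without the third unstimulated (−0.84, adjusted p = 0.0608) or first stimulated DMSO library (−1.04, adjusted p = 0.203). Ndufb3 fell with DMSO (−1.22 ± 0.34, adjusted p = 0.0146), with the call lost without the first stimulated library (−1.04, adjusted p = 0.126), and was at −0.76 ± 0.33 with Compound 10 (adjusted p = 0.118).

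Among the other complexes, the falls with stimulation in Compound 10 cells were in complexes II and III. Sdhd had 25.3, 25.1 and 35.1 CPM in stimulated Compound 10 cells, against 78.9 and 95.8 CPM in unstimulated Compound 10 cells, a 3.06-fold fall (log2 −1.62 ± 0.19 SE, adjusted p = 0.000123) that held in all 25 settings. In stimulated DMSO cells it had 68.3 and 76.8 CPM, against 100.1, 90.5 and 113 CPM in unstimulated DMSO cells (−0.48 ± 0.19, adjusted p = 0.0670). Sdha fell with Compound 10 (−0.54 ± 0.15, adjusted p = 0.0238) and with DMSO (−0.64 ± 0.16, adjusted p = 0.00766). The first call was lost without the first unstimulated (−0.38, adjusted p = 0.186) or first stimulated (−0.48, adjusted p = 0.0803) Compound 10 library, and the second without the first stimulated DMSO library (−0.53, adjusted p = 0.102). Sdhc fell with Compound 10 (−0.84 ± 0.25, adjusted p = 0.0294), but not without the second unstimulated (−0.63, adjusted p = 0.212) or the first (−0.70, adjusted p = 0.0968) or the third (−0.82, adjusted p = 0.0716) stimulated Compound 10 library, and was at −0.63 ± 0.26 with DMSO (adjusted p = 0.0789). Sdhb was at −0.33 ± 0.19 with Compound 10 and −0.47 ± 0.19 with DMSO (adjusted p = 0.236 and 0.0767). Uqcrc1, a core protein of complex III, had 150.9, 163.5 and 190.5 CPM in stimulated Compound 10 cells, against 266.8 and 291.8 CPM in unstimulated Compound 10 cells, without overlap. It fell 1.66-fold (−0.73 ± 0.18, adjusted p = 0.0112), a call that held in 24 of 25 settings, all but the one that left out the second library of unstimulated Compound 10 cells (−0.69, adjusted p = 0.0664). With DMSO it was at −0.25 ± 0.18 (adjusted p = 0.310). Uqcr11 and Uqcr10, small subunits of complex III, fell with Compound 10, Uqcr11 by 1.84 ± 0.54 on the log2 scale (adjusted p = 0.0271) and Uqcr10 by 1.53 ± 0.48 (adjusted p = 0.0337). Uqcr11 and Uqcr10 had transcripts under 800 bases, and without the second unstimulated Compound 10 library Uqcr11 was at −1.29 (adjusted p = 0.207) and Uqcr10 at −0.80 (adjusted p = 0.358). Without the first and second stimulated Compound 10 library Uqcr11 was at −1.56 and −1.76 (0.0942 and 0.0867), and without any of the 3 stimulated Compound 10 libraries Uqcr10 was between −1.64 and −1.47 (adjusted p between 0.0661 and 0.10).

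Of the 5 subunits of the F1 head of complex V, 2 were higher and 0 lower with stimulation in Compound 10 cells, and 3 were higher and 1 lower in DMSO cells, under TMM scaling. The lower one was Atp5c1, the gamma subunit of the central stalk (log2 −0.41 ± 0.13 SE, adjusted p = 0.0305), named after its values were seen. Its call was lost without the first or the third unstimulated or either stimulated DMSO library (between −0.44 and −0.37, adjusted p up to 0.157), and with Compound 10 it was at 0.02 ± 0.13 (adjusted p = 0.920). Atp5b had 2307, 2162 and 2410 CPM in stimulated Compound 10 cells, against 1473 and 1119 CPM in unstimulated Compound 10 cells, and was 1.77-fold higher (log2 0.82 ± 0.19 SE, adjusted p = 0.00847). It had 3129 and 2808 CPM in stimulated DMSO cells, against 1573, 1258 and 1032 CPM in unstimulated DMSO cells, and was 2.31-fold higher (1.21 ± 0.18, adjusted p = 0.000364). Scaled to library totals it was at 0.23 with Compound 10 (adjusted p = 0.360) and 0.43 with DMSO (adjusted p = 0.0745), and without the second unstimulated Compound 10 library at 0.61 (adjusted p = 0.114). Atp5a1, the alpha subunit that surrounds the catalytic sites with beta, was higher with DMSO (0.62 ± 0.15, adjusted p = 0.00601) and with Compound 10 (0.44 ± 0.15, adjusted p = 0.0480), and was below 0 when scaled to library totals (−0.16 and −0.15). Its call with DMSO was lost without the first stimulated library (0.57, adjusted p = 0.0607), and its call with Compound 10 without any of 8 single libraries, among them the second unstimulated Compound 10 library (0.37, adjusted p = 0.274; the other 7 between 0.36 and 0.49). Atp5d (0.43 ± 0.16, adjusted p = 0.0457) and Uqcrfs1, the Rieske iron–sulfur protein of complex III (0.50 ± 0.18, adjusted p = 0.0436), were higher with DMSO and were at −0.34 and −0.27 when scaled to library totals. Without one of 8 single libraries Atp5d (0.34 to 0.44), and without one of 6 Uqcrfs1 (0.39 to 0.53), was not called.

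The 3 genes of the c subunit encode the same mature protein behind different import sequences, and their mix differed between Compound 10 and DMSO libraries. Atp5g2 made up 23.5%, 14.6% and 12.5% of the summed TPM of the 3 genes in stimulated Compound 10 cells, against 6.15% and 8.38% in stimulated DMSO cells. It made up 15.4% and 11% in unstimulated Compound 10 cells, against 7.82%, 8.59% and 6.16% in unstimulated DMSO cells. Each Compound 10 library was thus above each DMSO library. The means were 16.9% ± 5.81 (SD, n = 3) in stimulated Compound 10 cells, 7.26% ± 1.57 (n = 2) in stimulated DMSO cells, 13.2% ± 3.09 (n = 2) in unstimulated Compound 10 cells and 7.52% ± 1.24 (n = 3) in unstimulated DMSO cells. This share was read after the levels had been seen and is given without a test. By gene, Atp5g2 itself was not called with Compound 10 in stimulated (log2 0.43 ± 0.28, adjusted p = 0.312) or unstimulated cells (0.65 ± 0.27, adjusted p = 0.173). Atp5g1 was at −1.0 ± 0.35 in stimulated cells (adjusted p = 0.0584), and Atp5g3 fell there as given above.

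**Figure D5:**
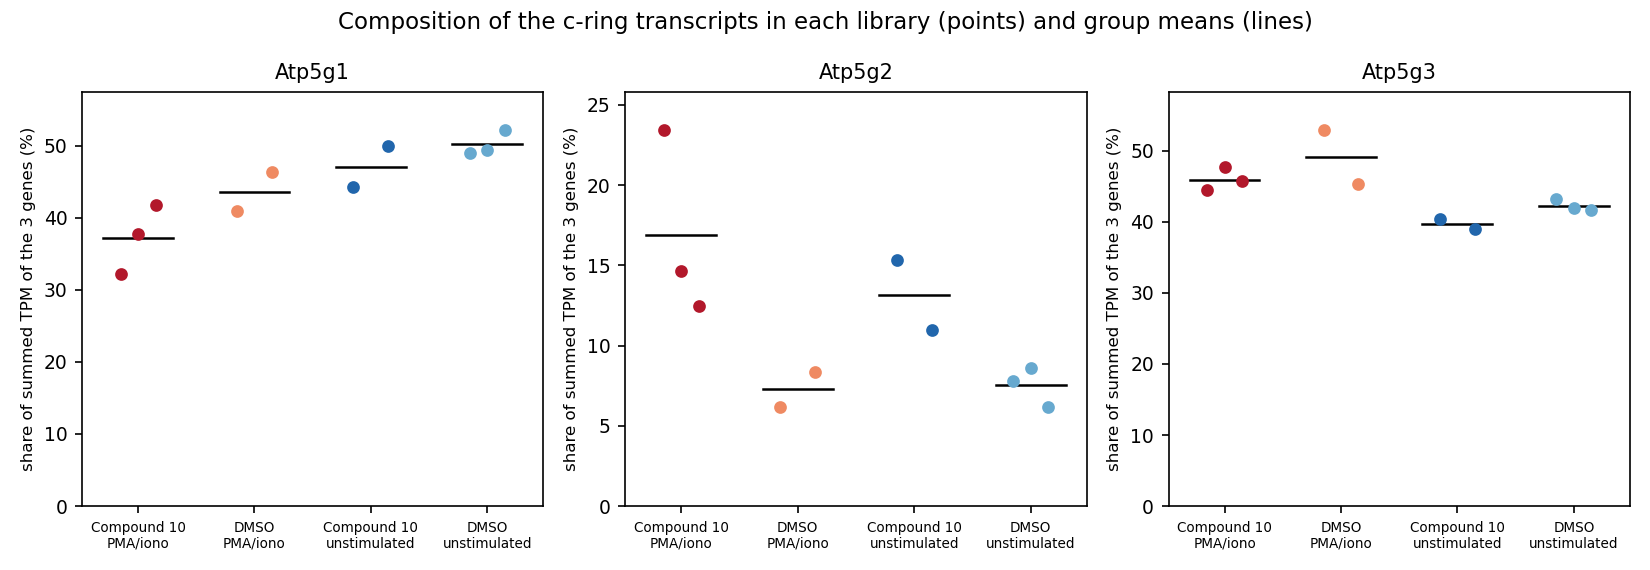
Share of Atp5g1, Atp5g2 and Atp5g3 in the summed TPM of the 3 genes, in percent, in each library (points) with group means as lines, in stimulated Compound 10, stimulated DMSO, unstimulated Compound 10 and unstimulated DMSO cells. Atp5g2 takes 11% or more in every Compound 10 library and 8.59% or less in every DMSO library.

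The 13 mitochondrially encoded subunits, transcribed from the mitochondrial genome by its own polymerase, were in part higher in stimulated cells under TMM scaling. With Compound 10, 5 (38.5%) were higher and 0 lower in stimulated than in unstimulated cells, beside 12.8% of all genes higher. With DMSO 9 (69.2%) were higher and 0 lower, beside 19.5% of all genes higher. The medians were 0.37 and 0.57. Scaled to library totals these medians were −0.21 and −0.20, with 0 called with Compound 10 and 1 higher and 1 lower with DMSO. With DMSO the largest rises were those of the complex I genes mt-Nd3 (log2 1.28 ± 0.20 SE, adjusted p = 0.000371) and mt-Nd5 (1.2 ± 0.20, adjusted p = 0.000694) and of mt-Co1, the catalytic subunit of complex IV (1.09 ± 0.13, adjusted p = 4.849e-05), of which mt-Co1 alone was also called on library totals. Between Compound 10 and DMSO, 4 of 13 were lower in stimulated cells, all of complex I (mt-Nd1, mt-Nd3, mt-Nd4l and mt-Nd4, with mt-Nd3 lost without the second stimulated DMSO library, adjusted p = 0.0503), and 1, mt-Nd1, was lower in unstimulated cells. mt-Nd1 averaged 1320 ± 96.0 CPM in stimulated Compound 10 cells and 3410 ± 26.1 CPM in stimulated DMSO cells (SD, n = 3 and n = 2; log2 −1.37 ± 0.14 SE, adjusted p = 9.769e-05). It was at −0.81 ± 0.14 in unstimulated cells (adjusted p = 0.00853), a call lost without the first unstimulated Compound 10 library (adjusted p = 0.0577).

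The rest of the pathway was read from lists of assembly factors, cofactor synthesis and regulators. Of all tested genes, 12.8% were lower and 10.4% higher in stimulated Compound 10 than in stimulated DMSO cells. Some lists lay near these shares, such as complex I assembly (11.1% lower and 5.56% higher) and coenzyme Q synthesis (15.4% each way). Of 18 tested complex I assembly factors, 2 were lower and 1 higher in stimulated Compound 10 cells than in stimulated DMSO cells, the lower ones being Ndufaf1 (log2 −1.27 ± 0.30 SE, adjusted p = 0.00944) and Ndufaf4 (−1.22 ± 0.20, adjusted p = 0.00153). Of the 4 complex II assembly factors 1 was higher, Sdhaf1, which helps insert iron–sulfur clusters into Sdhb (1.19 ± 0.27, adjusted p = 0.00746). Of the 6 complex III assembly factors 1 was higher, Bcs1l, the chaperone that inserts the Rieske protein (1.45 ± 0.38, adjusted p = 0.0164). Of 25 tested complex IV assembly factors 5 were lower and 1 higher, led by the copper chaperones Sco2 (−1.66 ± 0.32, adjusted p = 0.00329) and Sco1 (−1.60 ± 0.27, adjusted p = 0.00146). Of 5 complex V assembly factors 1 was lower, Tmem70 (−1.23 ± 0.28, adjusted p = 0.00796). Of 13 genes of coenzyme Q synthesis 2 were lower and 2 higher, the larger rise being that of the kinase-like Coq8a (1.5 ± 0.17, adjusted p = 0.000188). Cyc1, the cytochrome subunit of complex III that the symbol rule misses, was lower (−0.91 ± 0.17, adjusted p = 0.00272), the 1 called of 9 electron carriers and other subunits. Leaving out single stimulated libraries ended the calls of Ndufaf1 (either DMSO library, adjusted p up to 0.0618), Sdhaf1 (the first DMSO library, 0.0988), Tmem70 (the second DMSO library, 0.115) and Bcs1l (either DMSO or the second Compound 10 library, up to 0.140).

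Among 17 tested regulators of mitochondrial biogenesis, 3 were lower and 1 higher in stimulated Compound 10 cells than in stimulated DMSO cells. These were 17.6% and 5.88%, beside 12.8% and 10.4% of all genes. The 3 lower ones serve transcription of the mitochondrial genome, namely Tfb2m (log2 −1.52 ± 0.21 SE, adjusted p = 0.000422), Tfam, which also packages mitochondrial DNA (−0.99 ± 0.18, adjusted p = 0.00233), and the polymerase Polrmt (−0.94 ± 0.27, adjusted p = 0.0276). Other mitochondrial factors of the list, Tfb1m, Mterf1a and Mterf3, were not called. The higher one was Polg2, the accessory subunit of the mitochondrial DNA polymerase (1.15 ± 0.23, adjusted p = 0.00369). Without the first stimulated DMSO library Polg2 was not called (adjusted p = 0.0561), and without the first or second stimulated DMSO or the first or second stimulated Compound 10 library Polrmt was not (between −1.08 and −0.77, adjusted p up to 0.200). With stimulation, Myc, a transcription factor of growing cells, averaged 2303 CPM in stimulated and 35.3 CPM in unstimulated Compound 10 cells, and 2591 CPM in stimulated and 32.5 CPM in unstimulated DMSO cells (log2 6.03 ± 0.20 and 6.32 ± 0.18). Of 14 citric acid cycle genes 4 were lower and 2 higher with Compound 10 in stimulated cells, and 3 lower in unstimulated cells. These were 28.6% and 14.3% in stimulated cells, and 21.4% in unstimulated cells, where 3.78% of all genes were lower. The succinyl-CoA ligase subunit Sucla2 was lower in both (−1.40 ± 0.22, adjusted p = 0.00107, and −0.88 ± 0.22, adjusted p = 0.0337), and so was Ogdh of the 2-oxoglutarate dehydrogenase (−0.98 ± 0.15, adjusted p = 0.000948, and −0.68 ± 0.16, adjusted p = 0.0258). In unstimulated cells the call of Ogdh was lost without any of 4 single libraries, the first or second Compound 10 or the first or second DMSO library (−0.79 to −0.59, adjusted p up to 0.183). That of Sucla2 was lost there without any of 8, among them each of the 2 Compound 10 libraries (−1.18 to −0.64, adjusted p up to 0.179). Of 7 carriers and pores of the inner and outer membrane 0 were called with Compound 10 in either state.

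Other large protein assemblies were read beside the subunits. Of all genes, 12.8% were lower and 10.4% higher in stimulated Compound 10 against stimulated DMSO cells. With stimulation in DMSO cells, 19.4% of all genes were lower and 19.5% higher. In stimulated Compound 10 against stimulated DMSO cells, 33 of 78 mitochondrial ribosomal protein genes were lower and 2 higher (median −0.52), and 23 of 38 tested proteasome subunit genes were lower and 1 higher (−0.74). Of 86 tested cytosolic ribosomal protein genes 2 were lower and 0 higher (0.07). With stimulation in DMSO cells, 0 cytosolic ribosomal protein genes were lower and 46 higher (median 0.66, and −0.098 on library totals), 25 of the mitochondrial ones were lower and 9 higher (−0.46), and 7 of the proteasome genes were lower and 4 higher (−0.01). These counts stand side by side as description, and no test between the sets was made.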

How the data were processed

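RNA-seq of 10 libraries was processed by the submitters with cutadapt and kallisto, and mm10 is named as the build, per the submitters' processing notes with no tool versions stated. The authors deposited estimated counts per transcript from kallisto, per the file headers. The authors also deposited TPM per transcript, per the file headers, which divide by effective length. The library kit did not mark the strand. Transcripts were summed to genes with GENCODE M21 (GRCm38), in which 108214 of 109617 transcripts matched; the other 1403 held 0.507% to 0.671% of a library's counts and were left out.

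Summed estimated counts were rounded and tested with edgeR 4.0.16 (quasi-likelihood, TMM factors, filterByExpr, 1 fit over all 10 libraries, Benjamini-Hochberg adjustment over 14417 genes) in R 4.3.3. Adjusted p-values in the text are from this test, and SE is the log2 fold change divided by the root of the F statistic. Alternatives used DESeq2 1.42.0 and limma 3.58.1. Libraries of a group were not repeats of each other: the lowest chi-square per degree of freedom between 2 of them was 14.8. The members and gene lists were chosen with earlier results of these data known. After the values were seen, S6 kinase genes were taken out of the ribosomal protein set and Psmc3ip out of the proteasome set. Genes named with values were, per comparison, up to 6 called rises and 6 called falls of the largest size, the highest and lowest tested member of each complex, the paralog sets, complex II, and up to 3 called genes each way from the other lists. Some genes that this rule takes in are not reported here.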

Additional observations from a re-analysis of the deposited data

Results flagged for a closer look

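The interaction term of edgeR's quasi-likelihood test asks whether the effect of Compound 10 differed between stimulated and unstimulated cells. It was called for 1 of 79 respiratory chain subunits (1.27%) and for 5 genes of the surrounding pathway, beside 6.63% of all genes. The 5 were 2 of 18 complex I assembly factors, 2 of 13 coenzyme Q genes and 1 of 17 regulators of mitochondrial biogenesis. In each of the other lists 0 were called. A negative difference means that the log2 effect of Compound 10 was lower in stimulated cells. For Sdhd the difference was −1.14 (adjusted p = 0.0287), with 25.3, 25.1 and 35.1 CPM in stimulated Compound 10 cells, 68.3 and 76.8 CPM in stimulated DMSO cells, 78.9 and 95.8 CPM in unstimulated Compound 10 cells and 100.1, 90.5 and 113 CPM in unstimulated DMSO cells. Over the alternatives it lay between −1.39 and −0.92, with adjusted p between 0.00197 and 0.134.

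Tfb2m, a mitochondrial transcription factor, differed by −1.21 (adjusted p = 0.0314). It averaged 14.6 CPM in stimulated Compound 10 cells, 41.8 CPM in stimulated DMSO cells, 42.0 CPM in unstimulated Compound 10 cells and 52.2 CPM in unstimulated DMSO cells. Ndufaf4, a complex I assembly factor, differed by −1.08 (adjusted p = 0.0487), at 21.5, 49.8, 14.2 and 15.7 CPM in the same order of groups. Coq10b, which binds coenzyme Q, differed by −1.01 (adjusted p = 0.0117), at 291.7, 394.5, 114.5 and 76.8 CPM. In the other direction, Coq8a, needed for coenzyme Q synthesis, differed by 1.24 (adjusted p = 0.0116), at 27.6, 9.76, 68.8 and 57.5 CPM. Dmac2, which takes part in assembly of the membrane arm of complex I, differed by 1.23 (adjusted p = 0.0343), at 15.3, 9.22, 29.9 and 41.9 CPM. Leaving out single libraries ended the call of Coq8a and of Coq10b for 3 of the 10 libraries, that of Tfb2m for 6, and those of Ndufaf4 and Dmac2 for 8.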

How the results depend on the processing

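Over 25 alternatives, the called subunits kept their direction in stimulated Compound 10 against stimulated DMSO cells (375 results, 45 no longer called), in unstimulated Compound 10 against unstimulated DMSO cells (125, of which 30) and in the interaction (24, of which 9). With stimulation 86 of 575 results with Compound 10 and 50 of 500 with DMSO were no longer called, and 2 and 6 changed sign. These were Atp5a1 with Compound 10 (−0.15 on library totals, −0.0018 on log2(TPM + 1)) and, with DMSO, Atp5a1 (−0.16 and −0.012), Atp5d (−0.34 and −0.33) and Uqcrfs1 (−0.27 and −0.27).

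Called subunits are given in the order Compound 10 against DMSO in stimulated cells, the same in unstimulated cells, stimulation with Compound 10, stimulation with DMSO, and the interaction, where the counts above were 15, 5, 23, 20 and 1. Leaving out 1 library gave 5 to 21, 0 to 4, 5 to 34, 6 to 24 and 0 to 2. Library totals gave 57 and 52 with stimulation, and log2(TPM + 1) gave 55 and 53, all lower, and 0 in the interaction. Of all genes, 36.2% and 45.8% were lower with stimulation on library totals, and 29.6% and 40.8% on log2(TPM + 1). Without a filter on low counts 25 were called in the first, 40 in the third and 37 in the fourth comparison. Fits of only the 2 groups compared gave 28 in the first and 0 in the second. In the first, 33.8% of the subunits and 17.3% of all genes were lower, and in the second 0.254% of all genes. Upper-quartile factors and DESeq2 gave 2 each in the interaction. Of all genes, 3.3% and 6.93% were lower there, and 3.43% and 4.81% higher. The replicate block on title numbers gave 31 in the first, 43 in the third and 9 in the interaction. The labels do not say whether the title numbers pair the samples. Of 13 same-numbered pairs, 2 had a correlation of deviations over 0.1 (−0.279 to 0.331). These correlations cannot decide pairing, because in a group of 2 libraries the deviations mirror each other. The first unstimulated DMSO library was thus at 0.331 with the first and −0.331 with the second unstimulated Compound 10 library. A block on index runs gave 42, 18 and 33 in the first, the second and the fourth, and 8 in the interaction (3 of 12 pairs over 0.1). With it, 50.6%, 22.8%, 25.3% and 7.59% of the subunits were lower, against 16.9%, 7.85%, 22.4% and 8.95% of all genes. Chosen after seeing the data, leaving out both libraries that stood apart gave 32 and 2 in the first and second, and length offsets 23, 39, 33 and 2 in the first, the third and the fourth comparison and the interaction. With length offsets, 26.6%, 43.0%, 32.9% and 1.27% of the subunits were lower in these 4, against 15.1%, 14.6%, 19.9% and 6.12% of all genes. The cause of the shifts between settings was not tested. The counts of 7 subunit genes were under the filter, and these were not tested.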
